A study of Drosophila melanogaster with 8 samples.

Results

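The Drosophila line carrying a Stat92E mutation was compared with its parent line, S2R+, while both were exposed to the cytokine unpaired (upd). The comparison takes the 4 libraries labelled as upd-treated out of the 8 libraries of the series, 2 from the mutant line and 2 from the wild-type line, and covers the 8126 genes with enough counts to test out of 13932 in the tables. The mutant cells are labelled STAT92E mutant and described as S2R+ cells in which the gene was knocked out with CRISPR, with the cell line field spelled STAT492E. The wild-type cells are labelled S2R+ (once spelled SR2+). The libraries used as a second setting hold the same lines given control media. Cells of all 4 groups were harvested 1 h after ligand or media was added, and polyadenylated RNA was sequenced. The labels do not give the nature of the edit, whether the mutant line is 1 clone, or whether replicates came from separate cultures, and the spread that the p-values rest on may be technical. Mutation, cloning history and time in culture cannot be told apart between the lines.

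S2R+ is an adherent, macrophage-like line derived from fly embryos. In the JAK/STAT pathway, a secreted unpaired ligand binds the receptor Domeless, the kinase Hopscotch phosphorylates the transcription factor Stat92E, and Stat92E enters the nucleus and activates genes that include its own feedback inhibitor, Socs36E. In flies the pathway is known for roles in blood cells, immunity, stem cell niches and tissue growth.

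Totals were 21600752 and 22948539 counts in the mutant libraries with upd, against 9142736 and 30352948 in the wild-type libraries with upd, so wild-type replicate 1 was the shallowest of the 4. Levels are counts relative to the TMM-normalised depth of each library (CPM), and 3 counts in a library, taken as the floor of detection, equal between 0.0961 and 0.379 CPM. Mitochondrial transcripts took 19.07% and 17.01% of counts in the mutant libraries and 22.07% and 12.84% in the wild-type libraries. Among 17 plasmatocyte and macrophage markers, 11 could be tested and the summed level was 712 to 718 CPM in mutant cells and 1071 to 1104 CPM in wild-type cells. This gap lay partly in ush and Dscam1, at means of 68.2 and 113 CPM in mutant cells and 232 and 258 CPM in wild-type cells. At an adjusted p of 0.05 in edgeR's test, 3 of the 11 were lower (27.3%, against 6.53% of all tested genes). Another 1 was higher (9.09%, against 3.99%), and 4 log2 differences were above 0, with a list median of -0.27. With 1 library left out, the lower calls ran from -1.94 to -1.57 for ush, -1.57 to -0.89 for Dscam1 and -4.68 to -3.39 for Sr-CI. Hml was at -3.55 (-4.25 to -1.83 with 1 library left out) and did not pass. The scavenger receptor crq (172 and 221 CPM in mutant, 224 and 249 CPM in wild-type cells), Pxn and the GATA factor srp were detected in both lines, whereas NimC1, gcm, gcm2 and PGRP-SC2 had 0 counts in all 4 libraries. The lamellocyte marker atilla and the crystal cell marker PPO1 were also at 0. Part of the macrophage set was therefore measured in these cells and several of its defining genes were not.

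The targeted gene was still transcribed. Stat92E (FBgn0016917, dm6 3R 20535323 to 20552311) was measured at 111 and 121 CPM in mutant cells and at 157 and 160.0 CPM in wild-type cells. The mutant libraries were the lower ones and the groups did not overlap, but the log2 difference of -0.45 ± 0.14 (standard error, as for every log2 difference below) missed the threshold in edgeR's quasi-likelihood test (Benjamini-Hochberg adjusted p = 0.0802). The call with upd depended on the method, since DESeq2 gave -0.46 with an adjusted p of 0.0388. In control media Stat92E had 103 and 114 CPM in mutant cells and 161 and 178 CPM in wild-type cells. There it was called lower in the same edgeR test (-0.65 ± 0.14, adjusted p = 0.0253). Counts over the whole gene do not show whether a functional protein is made.

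With upd, 855 genes (10.5% of those tested) differed between the lines at an adjusted p of 0.05. Of these, 324 (3.99%) were higher and 531 (6.53%) lower in the mutant, and the median log2 difference of all tested genes was 0.02. Differences were often large: 178 genes (2.19%) were over 2-fold higher and 394 (4.85%) over 2-fold lower, and 48 were over 16-fold higher and 109 over 16-fold lower. Among the calls, 32 had at most 3 counts over the wild-type libraries with upd and 36 over the mutant ones. Fitted sizes of such genes are uncertain. All 855 had libraries that did not overlap between the lines, as did 53.2% of all tested genes. The share called was between 7.63% and 12.1% in each of 5 equal groups of genes ranked by level. The median absolute log2 difference of the called genes was 4.23 in the lowest of these groups and 0.91 in the highest. Fits with 1 library left out, here and below, have 1 library in that group. A call near the threshold can then be lost through the smaller group, with little change in its log2 difference. The count of calls was lower in each fit that left out a library with upd. Whether this came from the library left out or from the smaller group was not tested.

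**Figure D1:**
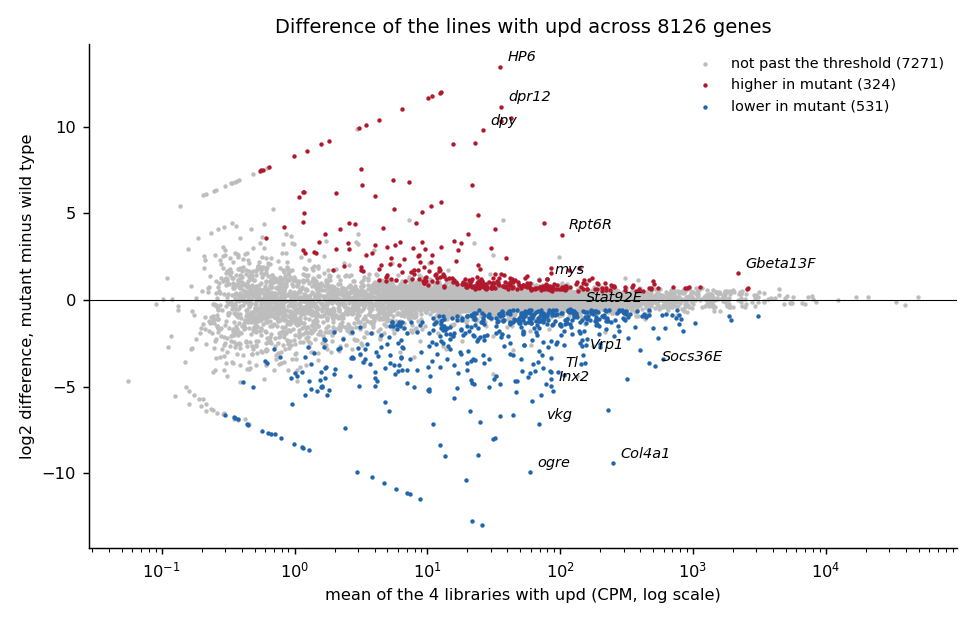
Log2 difference with upd (mutant minus wild type) of each of the 8126 tested genes against its mean level over the 4 libraries in CPM (log scale); red and blue points passed an adjusted p of 0.05. The 324 higher and 531 lower genes occur at all levels, and the straight rows at the upper and lower left are genes with 0 counts in a line, whose fitted differences are not bounds.

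Part of the tested JAK/STAT pathway genes were lower in the mutant. Of 6 tested components, 3 were lower and 0 higher (50.0% against 6.53% of all tested genes lower), with a median log2 difference of -1.24. The ligand gene upd2 had 0.756 and 1.28 CPM in mutant cells, against 10.3 and 8.68 CPM in wild-type cells (-3.20 ± 0.85, adjusted p = 0.0464). The ligand gene upd3 had 3.17 and 8.13 CPM in mutant cells, against 24.5 and 19.4 CPM in wild-type cells (-1.94 ± 0.50, adjusted p = 0.0420). The short receptor gene et (eye transformer), which antagonises the pathway and lies next to dome on the X chromosome, had 0.957 and 0.0855 CPM in mutant cells, against 4.84 and 7.17 CPM in wild-type cells (-3.57 ± 0.80, adjusted p = 0.0250). For each of these 3 genes both mutant libraries lay below both wild-type libraries, at low levels. The receptor gene dome was at -0.54 ± 0.17 (adjusted p = 0.0794) and the kinase gene hop at -0.15 ± 0.22 (adjusted p = 0.724), and neither passed. Endogenous upd1 had 1 count in mutant libraries and 0 in wild-type libraries. The 3 calls were not stable. That of upd2 was lost without any 1 of the libraries with upd (adjusted p 0.105 to 0.183), that of upd3 without either wild-type library or mutant replicate 1 (0.102 to 0.155), and that of et without either wild-type library (0.0510 and 0.121). Without mutant replicate 1, et was at -6.06.

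Socs36E, the feedback inhibitor of the pathway, was the 1 called gene among 9 tested regulators (11.1% lower, against 6.53% of all tested genes). It had 39.8 and 98.0 CPM in mutant cells, against 927 and 1007 CPM in wild-type cells, which is 14.0-fold lower (-3.81 ± 0.42, adjusted p = 9.98e-04). The mutant libraries differed from each other by more than the wild-type ones, and both were far below them. The other 8 regulators, among them Ptp61F, Socs16D, Socs44A and the SUMO-conjugating enzyme gene lwr, did not pass, with log2 differences between -0.19 and 0.26. The median over the 9 was -0.12.

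Of 24 genes listed as targets of the pathway in flies, 19 could be tested. This list, like the others, was chosen with earlier results of these data known, so its shares describe the list and are not a test. Of these, 7 were lower (36.8%, against 6.53% of all tested genes) and 0 higher, and all 19 log2 differences were below 0, with a median of -0.78 against 0.02 over all tested genes. Besides Socs36E, the lower genes were Vrp1, Tep2, Pvf2, Mmp1, lama and Diap1. Vrp1 encodes verprolin, an actin regulator that binds WASP, and had 26.2 and 33.4 CPM in mutant cells, against 233 and 296 CPM in wild-type cells (8.89-fold lower, -3.15 ± 0.21, adjusted p = 5.46e-05). The thioester protein gene Tep2, a complement-like factor of fly immunity, had 1.11 and 5.60 CPM in mutant cells and 68.9 and 108 CPM in wild-type cells (-4.70 ± 0.71, adjusted p = 0.00461). Both genes separated the lines without overlap and stayed past the threshold without any single library.

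The other lower targets were called with less margin. Pvf2, a PDGF- and VEGF-like ligand, had 2.52 and 15.0 CPM in mutant cells and 156 and 75.2 CPM in wild-type cells (-3.70 ± 0.92, adjusted p = 0.0375). The matrix metalloprotease gene Mmp1 had 4.13 and 16.1 CPM in mutant cells and 81.3 and 49.3 CPM in wild-type cells (-2.68 ± 0.66, adjusted p = 0.0370). Diap1, which encodes an inhibitor of caspases, had 213 and 237 CPM in mutant cells and 411 and 352 CPM in wild-type cells (-0.76 ± 0.17, adjusted p = 0.0236). Within each of these genes the mutant libraries were the lower pair. The phospholipase-like gene lama had 92.9 and 94.3 CPM in mutant cells and 153 and 188 CPM in wild-type cells (-0.87 ± 0.16, adjusted p = 0.0101). Leaving out 1 library with upd could end each of these 4 calls. For Diap1 that held for each of the libraries with upd (adjusted p 0.0527 to 0.121). For Pvf2 (0.0634 to 0.119) and Mmp1 (0.0690 to 0.121) it held for both wild-type libraries and mutant replicate 1, and for lama for wild-type replicate 2 and mutant replicate 1 (0.0735 and 0.0572).

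Among the 12 targets that did not pass, vir-1, an antiviral-response marker, had 401 and 665 CPM in mutant cells and 971 and 1007 CPM in wild-type cells (-0.89 ± 0.26, adjusted p = 0.0628). The transcription factor gene zfh1 had 327 and 355 CPM in mutant cells and 465 and 494 CPM in wild-type cells (-0.49 ± 0.14, adjusted p = 0.0539). The heparan sulphate proteoglycan gene dally was at -2.80 ± 0.82 (adjusted p = 0.0651). In these 3 genes the groups did not overlap, whereas libraries overlapped for chinmo, ken, Ptp61F, Tep4 and slbo. The Turandot genes TotA, TotC and TotM, together with Tep1 and wg, stayed below the filter, with at most 0.342 CPM in any library with upd.

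**Figure D2:**
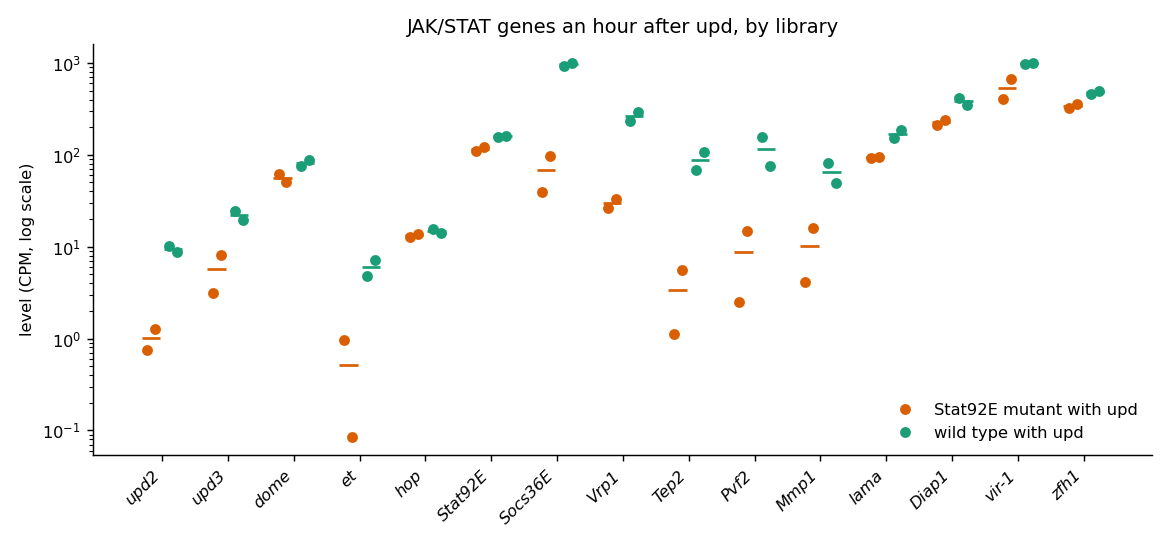
Level in CPM (log scale) of 15 JAK/STAT genes in each of the 2 mutant (orange, left) and 2 wild-type (green, right) libraries with upd; bars mark group means. Among these genes the gap between the nearest libraries of the lines is widest for Tep2, Socs36E and Vrp1, with the mutant libraries of Socs36E at 39.8 and 98.0 CPM and the wild-type ones at 927 and 1007 CPM, while hop and Stat92E lie close together.

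Most genes that differed between the lines with upd differed in control media too. In control media 729 genes (8.97%) were called, 266 higher (3.27%) and 463 lower (5.70%), of which 604 were called with upd too, all in the same direction. These 604 are 70.6% of the calls with upd and 82.9% of those in control media. All 855 genes called with upd lay on the same side of 0 in control media, against 80.0% of all tested genes. The 2 comparisons share no library, but same-numbered libraries of a line deviated together across media (correlations of deviations from the group means across genes 0.51 in the mutant and 0.48 in the wild type), so they are not independent.

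No gene passed the test of whether the line difference itself changed with the medium: edgeR called 0 of 8126 genes, with 88 at an unadjusted p under 0.05, and DESeq2 called 1. The genes with the lowest unadjusted p in each direction are given as values. Vrp1 had the lowest, with a line difference of -3.15 with upd and -1.73 in control media (difference -1.43 ± 0.28, unadjusted p = 6.86e-04, adjusted p = 1.000). Its level was 26.2 and 33.4 CPM in mutant cells with upd, 233 and 296 CPM in wild-type cells with upd, 21.4 and 23.0 CPM in mutant cells in control media, and 65.4 and 81.1 CPM in wild-type cells in control media. The wild-type libraries with upd stood apart from the other 3 groups. CG6204 came next, with a line difference of -0.54 with upd and 0.44 in control media (difference -0.98 ± 0.22, unadjusted p = 0.00153), and passed in neither medium. CG15673 was at -1.11 with upd, where it did not pass (adjusted p = 0.187), and at 2.20 in control media (adjusted p = 0.0461), with at most 7.39 CPM in any library with upd (difference -3.31 ± 0.74, unadjusted p = 0.00179). In these 2 genes the sign of the line difference was not the same in the media. Pino had 37.5 and 42.6 CPM in mutant cells with upd and 249 and 259 CPM in wild-type cells with upd, with 34.2 and 36.2 CPM in mutant cells and 132 and 97.7 CPM in wild-type cells in control media (difference -0.96 ± 0.25, unadjusted p = 0.00399).

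Ptpmeg2, a protein tyrosine phosphatase gene, was called with upd (118 and 147 CPM in mutant, 297 and 318 CPM in wild-type cells, -1.22 ± 0.17, adjusted p = 0.00295) and had a line difference of -0.36 in control media (adjusted p = 0.234). The difference between these 2 values had an unadjusted p of 0.00582. For Socs36E the line difference was -3.81 with upd and -2.59 in control media (unadjusted p of the difference 0.0519). In the other direction Sesn, which encodes a stress-induced brake on TOR signalling, had 80.2 and 72.7 CPM in mutant cells with upd and 28.6 and 35.2 CPM in wild-type cells with upd (1.25 ± 0.21, adjusted p = 0.00656). Its line difference in control media was 0.30, with an unadjusted p of 0.00965 for the difference between media. The Sesn call with upd was lost without wild-type replicate 1 (1.11, adjusted p = 0.0510). The kinase gene fray was at 0.09 with upd and -0.96 in control media (unadjusted p of the difference 0.00616), and the mutant and wild-type libraries with upd overlapped. PRAS40 was at 0.10 with upd and -0.78 in control media (unadjusted p of the difference 0.0120), SdicC, a multicopy gene, at 1.16 and -1.22 (0.0102), and sut2 was at most 0.513 CPM in libraries with upd (0.00828).

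**Figure D3:**
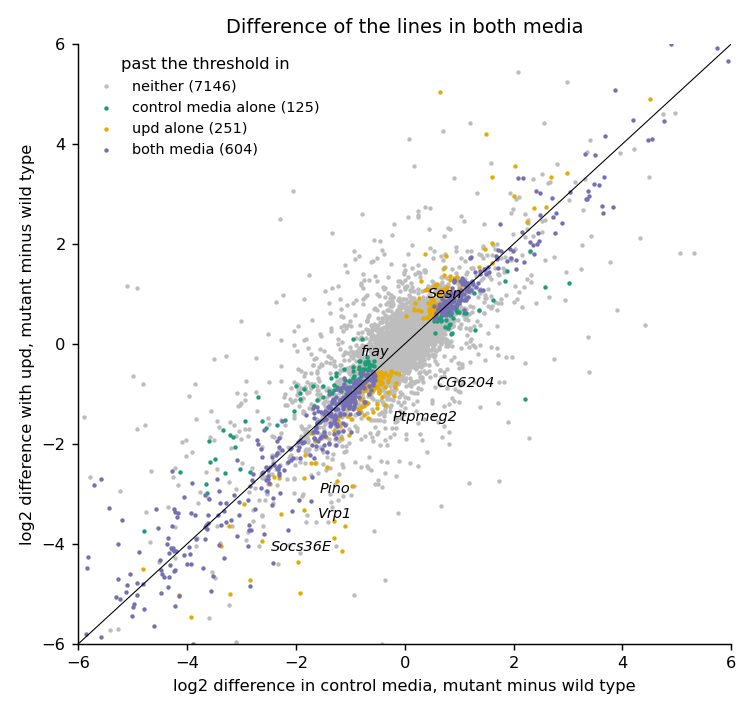
Log2 difference of the lines (mutant minus wild type) with upd against that in control media for each tested gene, coloured by the media in which it passed an adjusted p of 0.05; the line marks equal differences and 125 genes lie beyond the axes at 6. Genes called in both media (604) follow the line, and Vrp1, Pino, Socs36E and Ptpmeg2 lie below it.

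Basement membrane genes were among those with the largest losses. Of 15 tested matrix genes 8 were lower (53.3%, against 6.53% of all tested genes) and 0 higher, with a median log2 difference of -1.02. Col4a1, a type IV collagen chain, had 0.806 and 0.641 CPM in mutant cells, against 396 and 601 CPM in wild-type cells (687-fold lower, -9.42 ± 0.43, adjusted p = 1.72e-05). Its partner chain vkg (viking), the neighbouring gene on 2L, had 1.31 and 0.641 CPM in mutant cells, against 95.9 and 180.3 CPM in wild-type cells (-7.17 ± 0.58, adjusted p = 1.58e-04). The integrin ligand gene Tig (Tiggrin) had 6.30 and 10.9 CPM in mutant cells, against 65.6 and 84.7 CPM in wild-type cells (-3.13 ± 0.39, adjusted p = 0.00173). For these 3 genes the lines were separated in every library. The laminin genes LanA (-1.16), LanB2 (-0.89) and wb (-2.12), the collagen-binding SPARC (-0.92) and Mmp1 made up the rest of the calls. SPARC remained abundant, at 2458 and 1806 CPM in mutant cells and 3595 and 4467 CPM in wild-type cells. The collagen-modifying enzyme gene PH4alphaEFB was at 0.15 ± 0.31 (adjusted p = 0.802). LanA, LanB2 and SPARC lost their calls without wild-type replicate 2 (adjusted p 0.178, 0.155 and 0.137) or mutant replicate 2 (0.128, 0.122 and 0.104), LanA also without mutant replicate 1 (0.0766). The call of wb was lost without either wild-type library or mutant replicate 2 (0.0540 to 0.0789), and Mmp1 is described above.

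Of 16 genes of integrins and their adhesion complex, 4 were lower (25.0%, against 6.53% of all tested genes) and 1 was higher (6.25%, near the 3.99% of all tested genes), with a median of -0.45. The alpha subunit gene mew had 1 and 2 counts in mutant libraries and 213 and 748 counts in wild-type libraries, 25.8 and 23.9 CPM, a ratio of 351 (95% counting interval 119.6 to 1703). The beta subunit gene mys, the common partner of the alpha subunits, had 110.3 and 112 CPM in mutant cells and 51.2 and 45.7 CPM in wild-type cells (1.20 ± 0.16, adjusted p = 0.00230). Talin, which links integrins to actin and is encoded by rhea, was at -1.24 ± 0.18 (adjusted p = 0.00360). The alpha subunit gene if was at -2.69 ± 0.64 (adjusted p = 0.0324) and the beta subunit gene Itgbn at -3.42 ± 0.88 (adjusted p = 0.0413). The call of if was lost without wild-type replicate 1 (adjusted p = 0.142) or mutant replicate 1 (0.133), and that of Itgbn without either wild-type library or mutant replicate 1 (0.0912 to 0.121) and without either wild-type library in control media (0.0560 and 0.0547); without mutant replicate 2, Itgbn was at -5.44. Ilk, Pax, parvin and Fak had log2 differences between -0.20 and 0.06 and did not pass. Vinc (-0.95), stck (-0.73), Fit1 (-0.49) and CAP (-0.41) did not pass either. Of the 16 genes, 14 were below 0 and 2 above.

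Of 5 tested innexins, gap junction channel subunits, 2 were lower (40.0%, against 6.53% of all tested genes) and 0 higher. The innexin gene ogre (Inx1) had 0.252 and 0 CPM in mutant cells, against 122 and 115 CPM in wild-type cells (-9.92 ± 0.53, adjusted p = 2.66e-05). Inx2, which forms channels together with ogre, had 6.85 and 3.81 CPM in mutant cells, against 186 and 144 CPM in wild-type cells (31.0-fold lower, -4.96 ± 0.32, adjusted p = 4.94e-05). Both are encoded within a short stretch of the X chromosome, and zpg (Inx4) was at 134 and 127 CPM in mutant cells and 96.2 and 126 CPM in wild-type cells (0.23 ± 0.22, adjusted p = 0.567). Inx7 (-6.11) and Inx5 (-2.49) were below 0 and did not pass.

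Of 15 tested epithelial and septate junction genes, 5 were lower (33.3%, against 6.53% of all tested genes) and 0 higher, while 8 were above 0 and the median of the list was 0.19. The polarity scaffold gene sdt had 9.42 and 9.24 CPM in mutant cells and 44.3 and 37.4 CPM in wild-type cells (-2.13 ± 0.19, adjusted p = 3.27e-04). Nrg, the neuroglian adhesion molecule, was at -1.96 ± 0.18 (adjusted p = 3.87e-04) and cora, which links septate junctions to the cytoskeleton, at -1.47 ± 0.14 (adjusted p = 4.75e-04). The calls of Gli (-1.52) and dlg1 (-0.81) were each lost without wild-type replicate 1 (adjusted p = 0.0596 and 0.112) or mutant replicate 2 (0.0784 and 0.101), and that of Gli without wild-type replicate 2 (0.115). Among 23 actin regulators, 1 was higher (dia; 4.35%, near the 3.99% of all tested genes) and 4 were lower (17.4%, against 6.53%), of which Vrp1 and ena (-1.17 ± 0.15, adjusted p = 0.00174) were called without any single library. The other 3 calls were lost in part of these fits. Arp2 (-0.95) was lost without wild-type replicate 1 (adjusted p = 0.0673) or mutant replicate 1 (0.0783), and Rac2 (-0.78) without wild-type replicate 2 (0.110) or mutant replicate 1 (0.104). The call of dia (0.70) was lost without any 1 of the libraries with upd (adjusted p 0.0893 to 0.150) and without either mutant library in control media (0.0703 and 0.0687).

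Of 5 tested members of the chitinase-like Idgf family of secreted growth factors, 4 were lower (80.0%, against 6.53% of all tested genes) and 1 higher, with a median of -2.22. Idgf1, Idgf2 and Idgf3 lie side by side on 2L (dm6 16445278 to 16455194). Idgf1 had 1.86 and 6.97 CPM in mutant cells, against 140.1 and 203 CPM in wild-type cells (-5.26 ± 0.61, adjusted p = 0.00128). Idgf2 had 4.94 and 5.26 CPM in mutant cells, against 77.2 and 140.5 CPM in wild-type cells (-4.42 ± 0.40, adjusted p = 3.58e-04). Idgf3 had 49.6 and 63.0 CPM in mutant cells, against 181 and 343 CPM in wild-type cells (-2.22 ± 0.37, adjusted p = 0.00648). All 3 separated the lines. Idgf6 (-1.77 ± 0.42, adjusted p = 0.0302), with 334 and 424 CPM in mutant cells and 782 and 1804 CPM in wild-type cells, lost its call without wild-type replicate 2 (-1.04, adjusted p = 0.164) or either mutant library (0.149 and 0.0771). Idgf5 was higher, with 15.3 and 14.5 CPM in mutant cells and 2.79 and 4.90 CPM in wild-type cells (1.90 ± 0.37, adjusted p = 0.0136), and lost its call without wild-type replicate 1 (adjusted p = 0.0671).

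Metallothioneins, small proteins that bind copper, zinc and cadmium, were lower in 4 of 5 tested members (80.0%, against 6.53% of all tested genes), with a median of -3.53. MtnA had 168 and 37.8 CPM in mutant cells, against 1126 and 1037 CPM in wild-type cells (-3.39 ± 0.75, adjusted p = 0.0236). MtnD had 16.4 and 4.06 CPM in mutant cells, against 176 and 229 CPM in wild-type cells (-4.32 ± 0.86, adjusted p = 0.0155). MtnD (dm6 3R 20534962 to 20535301) and MtnE lie directly beside the 3′ end of Stat92E, which is on the minus strand and ends at 20535323. MtnB (-3.71) and MtnE (-3.53) were lower at levels up to 2.91 and 23.0 CPM in wild-type cells, and MtnF was at 0.59 ± 0.59 (adjusted p = 0.578). The 2 mutant libraries differed several-fold from each other in MtnA and MtnD. Without wild-type replicate 2 none of the 4 genes passed (adjusted p 0.0537 to 0.0761), and MtnA was lost without wild-type replicate 1 (0.0617) and, with MtnD, without mutant replicate 2 (0.0547 and 0.0555).

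Of 21 tested genes of the Toll and Imd pathways, 2 were higher (9.52%, against 3.99% of all tested genes) and 5 lower (23.8%, against 6.53%). The receptor gene Tl had 13.7 and 6.84 CPM in mutant cells, against 180.2 and 183 CPM in wild-type cells (17.7-fold lower, -4.15 ± 0.37, adjusted p = 2.99e-04). Its NF-kappaB factors dl (-1.85 ± 0.26, adjusted p = 0.00288) and Dif (-1.77 ± 0.28, adjusted p = 0.00503) were lower, as was the peptidoglycan sensor PGRP-SA (-0.97 ± 0.14, adjusted p = 0.00440). The Imd receptor gene PGRP-LC had 0 counts in both mutant libraries and 2.79 and 2.34 CPM in wild-type cells, at least 35.0-fold lower against 3 counts over the mutant group. The inhibitor gene cact (0.90 ± 0.18, adjusted p = 0.0180) and the intracellular sensor PGRP-LE (1.63 ± 0.39, adjusted p = 0.0337) were higher. Of these 7 genes, cact and PGRP-LE lost their calls in part of the fits with a library left out. Without wild-type replicate 2 they were at 0.75 (adjusted p = 0.121) and 1.36 (0.199), and without mutant replicate 2 at 0.91 (0.0510) and 1.24 (0.128). The call of cact was lost without mutant replicate 1 (0.0680), and that of PGRP-LE without wild-type replicate 1 (0.0708) or mutant replicate 2 in control media (0.0508). The antimicrobial peptide gene CecC was lower, with 8.97 and 11.2 CPM in mutant cells and 47.0 and 38.7 CPM in wild-type cells (-2.08 ± 0.24, adjusted p = 0.00119), and 13 of the 17 listed antimicrobial peptide genes were too low to test.

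Genes of the JNK stress cascade and its targets were lower in part. Of 14 tested genes 7 were lower (50.0%, against 6.53% of all tested genes) and 0 higher, with a median of -0.59. The transcription factor gene Ets21C had 11.7 and 15.4 CPM in mutant cells and 44.1 and 72.6 CPM in wild-type cells (-2.11 ± 0.27, adjusted p = 0.00199). The feedback phosphatase gene puc had 143 and 157 CPM in mutant cells and 316 and 287 CPM in wild-type cells (-1.01 ± 0.15, adjusted p = 0.00474), and scaf was at -1.20 ± 0.18 (adjusted p = 0.00446). These 3 were called without any single library. The kinase genes hep, bsk and Tak1 had log2 differences between -0.34 and -0.12 and did not pass. The TNF ligand gene egr (-2.51), the AP-1 genes Jra (-0.99) and kay (-0.66) and Mmp1 were called with all libraries. Without mutant replicate 1 these had adjusted p-values of 0.102, 0.101, 0.177 and 0.114, and without wild-type replicate 1 of 0.0670, 0.0795, 0.172 and 0.121. Without wild-type replicate 2 the calls of egr (0.110), kay (0.0783) and Mmp1 (0.0690) were lost, and kay was lost without mutant replicate 2 (0.0884) or either mutant library in control media (0.0767 and 0.0765).

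Of 12 tested brakes on insulin and TOR signalling, 3 were higher (25.0%, against 3.99% of all tested genes) and 1 was lower (8.33%, near the 6.53% of all tested genes), and 1 of these 4 calls, that of chrb, was kept without each library. The gene chrb (charybde), a REDD1-like inhibitor of TOR, had 201 and 156 CPM in mutant cells and 66.1 and 41.2 CPM in wild-type cells (1.74 ± 0.27, adjusted p = 0.00474). Its relative scyl was at 0.75 ± 0.18 (adjusted p = 0.0325) and Sesn is given above. Thor, the translational repressor 4E-BP, was at -1.89 ± 0.38 (adjusted p = 0.0168). With either wild-type library left out, Thor (adjusted p = 0.0508 and 0.0808) and scyl (0.0941 and 0.164) no longer passed, and scyl was also lost without mutant replicate 1 (0.49, 0.176) or either mutant library in control media (0.0559 and 0.0554). Sesn was lost without wild-type replicate 1 (0.0510). The triglyceride lipase gene bmm was higher, with 31.6 and 36.5 CPM in mutant cells and 12.5 and 14.1 CPM in wild-type cells (1.35 ± 0.22, adjusted p = 0.00648).

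Single genes of other lists stood out by size and held without any single library. The blood cell regulator ush had 63.4 and 73.0 CPM in mutant cells and 262 and 201 CPM in wild-type cells (-1.76 ± 0.21, adjusted p = 0.00159). The caspase gene Strica had 9.83 and 20.3 CPM in mutant cells, against 148 and 161 CPM in wild-type cells (-3.35 ± 0.34, adjusted p = 5.63e-04). The germline genes bam (-3.46 ± 0.58, adjusted p = 0.00676) and ovo (-3.31 ± 0.41, adjusted p = 0.00169) were lower, with at most 42.8 and 13.6 CPM in wild-type libraries. They were the only calls among 6 tested germline markers (33.3% lower, against 6.53% of all tested genes). The other 4 did not pass, among them aub (-0.30), AGO3 (-0.35) and osk (0.56). The calcium channel gene cac was higher, with 10.8 and 8.85 CPM in mutant cells and 2.54 and 2.40 CPM in wild-type cells (adjusted p = 0.00360). It was the 1 called gene among 11 tested neuron markers (9.09% higher, against 3.99% of all tested genes). Of that list 6 members were below 0 and 5 above, with a median of -0.19. The EGFR feedback genes kek1 (-1.11 ± 0.16, adjusted p = 0.00431) and aop (-1.18 ± 0.19, adjusted p = 0.00650) and the Hippo target ex (-1.28 ± 0.20, adjusted p = 0.00559) were lower. Of 14 tested EGFR and ERK genes, 2 were lower (14.3%, against 6.53% of all tested genes) and 1, Ras85D, was higher (7.14%, against 3.99%). Unlike the genes above, Ras85D (0.57 ± 0.15, adjusted p = 0.0415) lost its call without any 1 library.

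In 5 lists no gene was called. None of 14 tricarboxylic acid cycle genes, 13 genes of the mitochondrial genome, 9 muscle markers, 8 BMP pathway genes or 5 fat body markers passed, under the edgeR test that called 10.5% of all genes. Of these 49 genes, 3 had an unadjusted p under 0.05 and DESeq2 called 1. Of 28 cell cycle genes 1 was called higher (3.57%, near the 3.99% of all tested genes), and their median was 0.19. Of 25 glutathione S-transferase genes 2 were lower, a share near the 6.53% of all tested genes. A gene that missed the threshold is not shown to be equal in the lines.

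**Figure D4:**
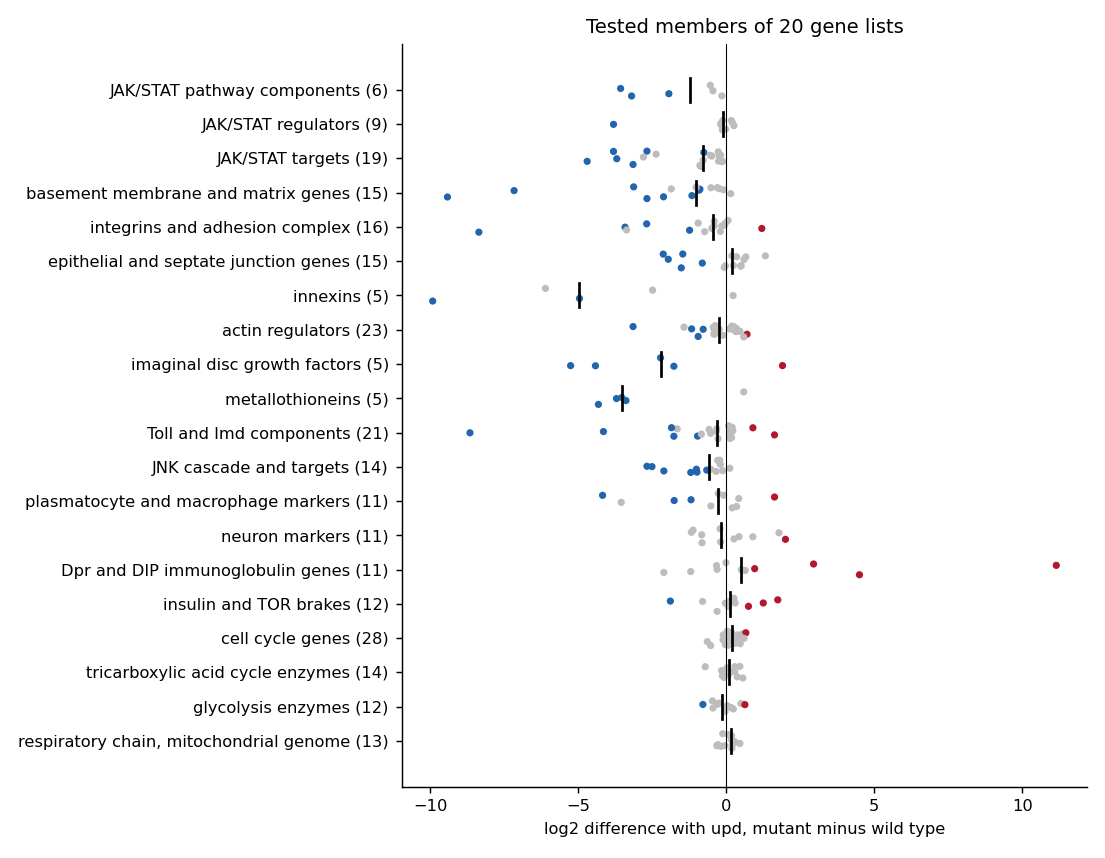
Log2 difference with upd (mutant minus wild type) of each tested member of 20 gene lists, with the number of members in parentheses, red and blue for genes higher and lower at an adjusted p of 0.05 and a black bar at the median. Metallothioneins, Idgf genes, innexins and matrix genes reach far below 0, Dpr and DIP genes reach above it, and cell cycle and mitochondrial genes stay near 0.

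A set of genes was detected in 1 line and at or below 3 counts in the other. At a mean of at least 10 CPM in the higher line, 13 such genes were present in the mutant and 9 in the wild type. HP6, a heterochromatin protein 1 family gene, had 81.9 and 59.2 CPM in mutant cells and 0 counts in wild-type cells, at least 916-fold higher. The dpr12 gene, of the immunoglobulin superfamily Dpr family, had 74.1 and 69.1 CPM in mutant cells and 1 count in wild-type cells, a ratio of 2820 (95% counting interval 506 to 111419). The giant matrix protein gene dpy had 60.3 and 44.5 CPM in mutant cells and 0.242 and 0 CPM in wild-type cells, a ratio of 1022 (283 to 8446). Each had at least 44.5 CPM in both mutant libraries and was close to or at 0 in both wild-type libraries. CPM does not account for gene length. By the authors' RPKM, which is scaled to gene length and depth, mutant means were 117 for HP6, 13.1 for dpr12 and 0.611 for dpy. For its length, dpy was thus at a low level in the mutant. The insulator protein gene Elba3 (at least 296-fold), the tetraspanin gene Tsp29Fb (at least 327-fold) and CG12782 (at least 270.4-fold) were higher from 0 counts in wild-type cells. The testis paralogs betaNACtes6 and betaNACtes3 were higher too (at least 335-fold, and a ratio of 1416 with an interval of 392 to 11697), but near-identical copies make the split of their reads uncertain.

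In the other direction, CG43063 had 0 counts in mutant cells and 60.8 and 42.5 CPM in wild-type cells, at least 667-fold lower. AhcyL2, an adenosylhomocysteinase-like gene, had 0 counts in mutant cells and 17.3 and 18.0 CPM in wild-type cells, at least 257-fold lower. Kank was at least 203-fold and the calmodulin-binding igl at least 214-fold lower, both from 0 counts in mutant cells. CG32115 had 1 count in mutant cells and 42.6 and 35.3 CPM in wild-type cells, a ratio of 1594 (286 to 62997). Each of these was called in control media too.

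Abundant transcripts differed by smaller factors. Gbeta13F, a G protein beta subunit, had 3088 and 3454 CPM in mutant cells and 1210 and 1035 CPM in wild-type cells (2.91-fold higher, 1.54 ± 0.18, adjusted p = 0.00130), or 516 and 178 RPKM on average (the authors' value scaled to gene length and depth). Rpt6R, related to a proteasome ATPase, had 156 and 226 CPM in mutant cells and 16.7 and 11.6 CPM in wild-type cells (3.78 ± 0.35, adjusted p = 3.58e-04). The chromatin gene wds was at 247 CPM in both mutant libraries and at 101 and 103 CPM in wild-type cells (1.27 ± 0.16, adjusted p = 0.00190). Among the lower ones, Drat had 234 and 252 CPM in mutant cells and 741 and 754 CPM in wild-type cells (-1.62 ± 0.14, adjusted p = 2.29e-04). Alg-2 had 76.5 and 155 CPM in mutant cells and 578 and 478 CPM in wild-type cells (-2.19 ± 0.40, adjusted p = 0.0104), and CG1092 had 495 and 521 CPM in mutant cells and 984 and 1230 CPM in wild-type cells (-1.12 ± 0.17, adjusted p = 0.00455). All 6 held without any single library.

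Several of the genes that differed most lay side by side. On 2L, 6 of 11 consecutive tested genes around dpy (dm6 4458595 to 4722465), from mRpL27 to dcma, were higher, among them dpy, HP6, CG11929, Elba3 and CG3251, and their running median was 8.98 with upd and 8.27 in control media. HP6 lies within dpy on the same strand, so their reads cannot be told apart for certain. On 2R, 5 of 11 genes around Or42a (5754517 to 5966856), among them dpr12, CG43366 and CG7881, were higher, with a median of 6.14 with upd and 6.70 in control media. On X, 9 of 11 genes from Pdfr to Seipin (2552206 to 2622140), wds included, were higher, and all 11 were above 0, with a median of 1.07 in both media. Runs of lower genes were found too. Of 11 genes around RapGAP1 on 2L (7430530 to 7732670), Tep2 among them, 6 were lower with a median of -2.38, and of 11 genes from Nemp to if on X (16653220 to 16783434), 6 were lower with a median of -2.69. Over all tested genes, 3.99% were higher and 6.53% lower. These windows were the highest and lowest of their arms and were chosen by that, so their counts are not a test of clustering. Copy number and gene regulation cannot be told apart in RNA.

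A longer stretch with smaller differences lay further along X. Of 51 consecutive tested genes from CG9213 to CG16952 (dm6 15572076 to 15875607), 22 were higher and 47 were above 0, with a median of 0.72 with upd and 0.69 in control media. Gbeta13F, the chaperonin gene CCT6 (1.08 ± 0.18), PGRP-LE (1.63 ± 0.39), the ATP synthase subunit gene sun (1.14 ± 0.22) and Gapdh2 (0.63 ± 0.15) lie in it. It was chosen as the window of this length with the most higher calls on X, where 5.68% of tested genes were called higher. The 2L and 3R windows chosen the same way had 12 and 10 higher calls. Apart from Gbeta13F these calls were not stable: CCT6 was lost without wild-type replicate 1 (adjusted p = 0.0519), sun without wild-type replicate 2 (0.0912) or mutant replicate 1 (0.0592), PGRP-LE as given above, and Gapdh2 without either wild-type library with upd (0.0840 and 0.180), mutant replicate 2 (0.139) or either mutant library in control media (0.0681 and 0.0677).

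By arm, the median log2 difference lay between -0.09 (2L, 1411 genes) and 0.05 (3R, 1965 genes). The share of genes called higher was 5.68% on X, 5.03% on 2L and between 2.95% and 3.53% on the other 3 large arms, and the share called lower was between 5.26% (3L) and 8.79% (2L) on these 5 arms.

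**Figure D5:**
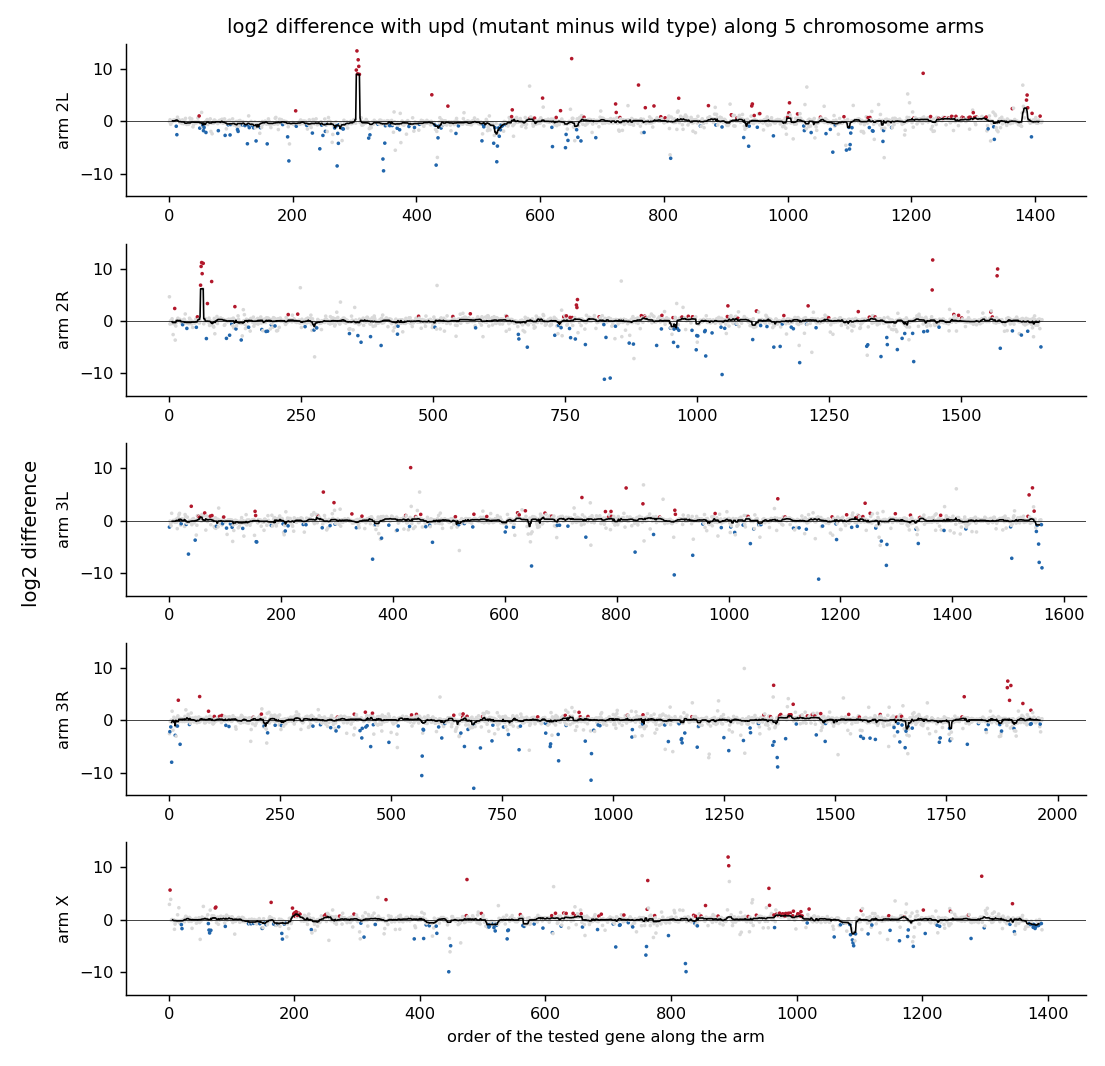
Log2 difference with upd (mutant minus wild type) of each tested gene in its order along 5 chromosome arms, red and blue for genes higher and lower at an adjusted p of 0.05, with the running median over 11 genes as a black line. The median stays near 0 along most of each arm and leaves it at the runs around dpy on 2L (8.98), Or42a on 2R (6.14) and Septin4 on X (-2.69).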

How the data were processed

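The members of the comparison and the gene lists were chosen with earlier results of these data known. Each deposited table gives a whole-number count, a length and an RPKM value per FlyBase gene. The authors' counts were used as deposited. Their RPKM values, which equal the count over length and over a constant per library, were used for levels between genes and in alternatives. Tools include Trimmomatic 0.36 and STAR 2.5.2b on dm6, per the submitters' processing notes, and libraries were poly-A selected with Trizol-extracted RNA, per the labels' protocols. The counter, its annotation and its strand setting are not stated in these sources, so reads of overlapping genes cannot be told apart for certain. Such pairs are HP6 with dpy and betaNACtes3 with dpr8, which lie on the same strand. Others are Vrp1 with mei-S332 and CG30281, ogre with bou, Idgf1 with CG5888, Idgf6 with Pgant9, et with Zw, and Tep2 with CG43235. Symbols and coordinates came from an Ensembl annotation of dm6 (13852 of 13932 identifiers matched).

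The test was edgeR's quasi-likelihood F-test (edgeR 4.0.16, R 4.3.3) on the counts (TMM scaling, filterByExpr, 4 group means, all 8 libraries), which left 8126 genes and 4 residual degrees of freedom. The fit treats libraries as independent, although same-numbered libraries of a line deviated together across media (0.51 in the mutant, 0.48 in the wild type). The 4 degrees of freedom may therefore be overstated. The biological coefficient of variation had a median of 17.8%. All tests are two-sided with Benjamini-Hochberg adjustment over all 8126 genes and a threshold of 0.05. The script was tested on simulated counts. Folds against 0 counts used 3 counts over the group and ratios over 1 to 3 counts have 95% intervals; both cover counting error only. Alternatives used DESeq2 1.42.0, limma 3.58.1, other scalings, filters and units, thinning, a replicate block and each library left out.

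Genes were named by rule: the 12 largest non-overlapping calls in each direction with at least 10 CPM in the higher line, the 8 most abundant by RPKM over 2-fold, all JAK/STAT list members, up to 4 called members of each other list by p, the 5 lowest p per direction for the difference between media, and the 6 highest genes present in 1 line. Of 40 lists with 559 symbols, 539 genes were in the tables. Other list members and genes of the runs were named after their values were seen. Not every gene of the rule is printed.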

Additional observations from a re-analysis of the deposited data

How the results depend on the processing

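The count of 855 genes with upd was 1429 with no filter on low counts, 470 without both shallow wild-type libraries and between 382 and 774 with each of the 8 libraries left out, lowest without wild-type replicate 2 with upd. DESeq2 called 1254, and 854 of the 855 were among them. Under the other settings except the replicate block, the count was within 1.5 times of 855. Among these settings, a fit of only the 4 libraries compared called 599 genes, of which 567 were among the 855 (66.3% of them). The count of 729 in control media was 1294 with no filter, 1138 with DESeq2, 330 without both shallow wild-type libraries and between 253 and 782 with each library left out. For the difference between media, 0 genes passed with each library left out, against 4 with no filter, 1 with DESeq2 and 1 with limma voom in which same-numbered libraries of a line were correlated. Stat92E passed with DESeq2 (-0.46) and was between -0.52 and -0.39 with each library left out. The cause of these changes was not tested. The replicate number as a block gave 1386 genes with upd, 1247 in control media and Stat92E at -0.45 (adjusted p = 0.0321), but same-numbered mutant and wild-type libraries with upd shared only a number (correlation of deviations 0.04). Values of the named genes other than Stat92E were compared under 22 settings. Of these values, 2704 kept direction and side of the threshold, 272 no longer passed, 26 newly passed and 26 changed sign. All sign changes were in genes that were not called. With the counts thinned to the shallowest library, hop was at 0.01 and Socs44A at -0.03. Socs16D was at 0.01 with limma on log2 RPKM at either pseudocount, 0.05 after quantile normalization and with voom, 0.03 with the replicate block, 0.58 without both shallow libraries and between -0.45 and 0.58 with 1 library left out. Without both shallow libraries PRAS40 was at -0.10, ken at 0.02, chinmo at 0.06 and slbo at 0.59. With 1 library left out, values ran between -0.16 and 0.32 for fray, -0.10 and 0.35 for PRAS40, -0.36 and 0.06 for Ptp61F, -0.41 and 0.02 for ken, -0.39 and 0.01 for lwr, -0.32 and 0.06 for chinmo, -0.71 and 0.07 for Tep4 and -6.07 and 0.59 for slbo. The voom fit and that without shallow libraries were chosen after seeing the data. Depth limits genes near 3 counts, and 2 libraries a group limit every test.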

Other observations

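Further list members differed between the lines with upd. Hsp60A, the mitochondrial chaperonin, was at 0.70 ± 0.16 (edgeR adjusted p = 0.0280). It was the 1 call among 14 tested heat shock and chaperone genes (7.14% higher, against 3.99% of all tested genes). CCT6, a subunit of the cytosolic chaperonin, had 618 and 745 CPM in mutant cells and 302 and 344 CPM in wild-type cells (1.08 ± 0.18, adjusted p = 0.00672). Among 12 tested glycolysis genes, Gapdh2 was at 0.63 ± 0.15 (adjusted p = 0.0337) and Eno at -0.79 ± 0.19 (adjusted p = 0.0297). These were the only calls of that list, 8.33% higher and 8.33% lower, against 3.99% and 6.53% of all tested genes. The scavenger receptor gene Sr-CI had 0.554 and 0.299 CPM in mutant cells and 4.48 and 10.7 CPM in wild-type cells (-4.18 ± 0.78, adjusted p = 0.0114). Of 11 tested Dpr and DIP genes, 4 were higher (dpr12, dpr16, dpr19 and dpr20), 36.4% against 3.99% of all tested genes, and 0 lower. The median was 0.51, with 6 above 0 and 5 below. Without wild-type replicate 2 with upd the calls of Hsp60A (adjusted p = 0.167), Gapdh2 (0.180), Eno (0.133), Sr-CI (0.0704), dpr20 (0.155), dpr19 (0.130) and dpr16 (0.124, at 8.35) were lost, and that of CCT6 was lost without wild-type replicate 1 (0.0519). The calls of Hsp60A, dpr20, dpr19 and dpr16 were also lost without mutant replicate 1, at log2 differences of 0.60, 0.78, 2.89 and 3.43. Those of Gapdh2, Eno, Sr-CI and dpr19 were lost without mutant replicate 2, at 0.49, -0.63, -3.80 and 2.98. Without wild-type replicate 1, Hsp60A, Gapdh2, Eno, dpr19 and dpr16 were lost, at 0.82, 0.71, -0.85, 2.81 and 4.06. Leaving out either mutant library in control media ended the calls of Hsp60A, Gapdh2 and dpr16. Their log2 differences there were 0.70 for Hsp60A, 0.63 for Gapdh2 and 4.51 or 4.50 for dpr16.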
